A study of Homo sapiens with 18 samples.

Results

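The glycolysis, lactate and hypoxia genes examined here are 35 genes listed by role: 4 carriers of glucose and lactate, 17 glycolytic enzymes, 5 genes of lactate formation and pyruvate entry, and 9 further targets of the hypoxia response. Each gene was read through its brightest probeset, the one with the highest mean log2 signal over all arrays among probesets that name this gene alone. Of the 35 genes, 32 had such a probeset, among 19775 genes named on the array (54675 probesets), and SLC16A1, SLC16A3 and CA9 were not analysed here. The cells were A549, a line from a human lung carcinoma, grown at the air-liquid interface and kept for 72 h in a gas chamber. In each of 9 experiments a culture in the exposure chamber was set beside a culture in a reference chamber without formaldehyde, and formaldehyde in the exposure chamber was set to 0, 0.1 or 0.5 ppm, with 3 experiments at each level. This gave 6 groups of 3 arrays, 18 in all, each from 1 RNA sample of the same line. The experiments are called A1 to A3 (0 ppm), B1 to B3 (0.1 ppm) and C1 to C3 (0.5 ppm) after their replicate numbers. Levels are log2 of the deposited signal, and differences are log2 units (1 unit is a 2-fold change). A gene was called, that is, passed the threshold, where limma gave an unadjusted p under 0.05, the limit the study used, and the Benjamini-Hochberg adjusted p over all probesets is given beside it.

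Glycolysis splits glucose into pyruvate, and lactate dehydrogenase turns pyruvate into lactate where it is not burnt in mitochondria. When oxygen is short, the prolyl hydroxylases stop marking the HIF alpha subunits for degradation, and HIF then binds the core motif RCGTG near genes of glucose uptake, glycolysis, vessel growth and pH control. Cultured carcinoma cells run glycolysis at a high rate also with oxygen, and genes of this pathway such as GAPDH often serve as reference genes in expression measurements.

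Most of the genes had bright probesets in these cultures, each array reading the RNA of a whole culture, so that fewer expressing cells and less RNA per cell cannot be told apart. On all 18 arrays 29 of the 32 genes lay above the median signal of the array, 17 had a mean signal above the 90th percentile of all probesets and 6 above the 99th. LDHC, the lactate dehydrogenase of male germ cells, was the 1 gene whose mean lay below the 50th percentile, and it exceeded the array median on 1 of 18 arrays. Keratin genes KRT8 and KRT18 and the A549 marker AKR1B10 were above the median on 18 of 18 arrays, and CDKN2A, which A549 cells have lost, on 0 of 18. Of the other epithelial markers, EPCAM, CDH1 and SFTPB were above it on 18, NKX2-1 on 10 and SFTPC on 12 arrays. PTPRC, CDH5, COL3A1 and DCN, markers of blood, vessel and connective tissue cells, were above it on 0 of 18, while PECAM1 was on 7 and COL1A1 and ACTA2 were on 18. On 2 arrays, the reference chambers of A3 and B1, the 5′ control probeset of actin was at 6.85 and 5.90, against 7.75 to 9.70 on the other 16. Their 3′ probeset of actin was not low, at 14.42 and 14.57, and low actin signal below refers to the 5′ probeset. Most differences between chambers at 0 and 0.1 ppm changed when these arrays were left out. Without the array in question the difference moved by over 1.5 times or changed its sign for 29 of 32 genes at 0 ppm. At 0.1 ppm it did so for 30. Differences near 0 meet this rule easily, and the count was not made for other arrays, so it does not set these arrays apart. Values without the array in question are given below for the genes described.

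The stretch around the start site of 4 genes is shown because the results below turn on them. ADM and LDHC were called between chambers in at least 1 comparison and ALDOC and LDHC between experiments, none past the adjusted limit, and LDHA is the neighbour of LDHC on chromosome 11 and its abundant counterpart. The windows are RefSeq sequence (GRCh38.p14), 250 bases before to 50 after the annotated start, written in the direction of the gene. Capitals mark ACGTG and GCGTG, the forms of the HIF core motif, on either strand (CACGT and CACGC on the other strand), with overlapping matches merged. The ADM window, at chr11:10304823-10305122 on the plus strand, has 1 GCGTG, the ALDOC window, at chr17:28576846-28577145 on the minus strand, has 3 ACGTG and 2 GCGTG, the LDHA window, at chr11:18394313-18394612 on the plus strand, has 5 and 1, and the LDHC window, at chr11:18412068-18412367 on the plus strand, has 1 and 2.
ADM: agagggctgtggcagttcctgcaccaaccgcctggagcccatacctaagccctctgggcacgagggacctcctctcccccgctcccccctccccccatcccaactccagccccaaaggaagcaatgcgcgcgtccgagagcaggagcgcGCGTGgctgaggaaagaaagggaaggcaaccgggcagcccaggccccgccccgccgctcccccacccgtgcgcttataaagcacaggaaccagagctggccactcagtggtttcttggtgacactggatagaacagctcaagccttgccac
ALDOC: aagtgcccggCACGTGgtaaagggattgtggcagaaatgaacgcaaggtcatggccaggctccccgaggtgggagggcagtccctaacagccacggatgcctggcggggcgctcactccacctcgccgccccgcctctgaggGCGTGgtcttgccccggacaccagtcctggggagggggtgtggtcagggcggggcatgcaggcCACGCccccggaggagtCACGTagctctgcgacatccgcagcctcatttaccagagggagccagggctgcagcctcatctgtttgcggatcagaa
LDHA: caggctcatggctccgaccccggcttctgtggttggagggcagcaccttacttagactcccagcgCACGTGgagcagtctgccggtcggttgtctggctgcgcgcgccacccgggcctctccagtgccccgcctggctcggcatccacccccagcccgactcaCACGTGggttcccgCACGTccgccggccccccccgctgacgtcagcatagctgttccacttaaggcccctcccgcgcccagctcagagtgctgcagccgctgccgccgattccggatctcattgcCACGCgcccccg
LDHC: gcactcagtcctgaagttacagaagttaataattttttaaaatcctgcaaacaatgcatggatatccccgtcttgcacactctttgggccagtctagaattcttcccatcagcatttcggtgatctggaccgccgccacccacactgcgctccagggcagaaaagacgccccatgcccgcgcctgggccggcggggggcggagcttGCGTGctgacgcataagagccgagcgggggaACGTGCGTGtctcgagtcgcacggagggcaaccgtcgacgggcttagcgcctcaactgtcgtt
Over all 35116 windows of this length, 21.4% hold ACGTG, 36.5% GCGTG and 48.4% either. For the measured genes 50 windows of 28 genes were found, of which 21 hold ACGTG, 21 GCGTG and 34 either, 34 of 50 beside the 48.4%. By gene, 26 of the 28 have a match in at least 1 window, against 52.4% of the 27305 genes with a window, and the number of windows a gene has was not matched. A match describes the letters and does not show that HIF binds there.

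Few of these genes differed with formaldehyde beyond the error of 3 cultures a group. Between exposure and reference chamber 0 of 32 genes passed the threshold at 0 ppm, where 4.84% of all probesets did, 0 at 0.1 ppm (4% of all probesets) and 1 at 0.5 ppm (3.92%). In the exposure chamber 0 genes differed between 0.1 and 0 ppm (4.47% of all probesets) and 1 between 0.5 and 0 ppm (4.56%). That 1 gene was LDHC in both comparisons. The chamber difference itself was compared between experiments, and 0 genes passed for 0.1 against 0 ppm (3.21%) and 0 for 0.5 against 0 ppm (3.69%). Cultures of the reference chambers never met formaldehyde, and between them 0 genes passed for the 0.1 against the 0 ppm experiments (3.68%) and 0 for the 0.5 ppm ones (4.54%). After adjustment in limma neither any of these genes nor any other probeset passed in these comparisons. Groups of 3 that did not overlap occurred between chambers for 4 genes at 0 ppm (10% of all probesets), 1 at 0.1 ppm (7.87%) and 4 at 0.5 ppm (6.75%). Against 0 ppm in the exposure chamber such groups occurred for 0 genes at 0.1 ppm (8.57%) and for LDHC at 0.5 ppm (8.55%).

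The median difference over the 32 genes between chambers was -0.10 at 0 ppm, -0.0069 at 0.1 ppm and -0.011 at 0.5 ppm, beside -0.071, -0.073 and -0.042 over all probesets. Each of these medians changed its sign without a single array. It was 0.02 at 0 ppm without the reference chamber of A3, with 18 genes higher in place of 12, and 0.10 at 0.1 ppm without that of B1, with 21 in place of 14. At 0.5 ppm it was 0.10 without the reference chamber of C2, with 26 genes higher in place of 16, and 0.06 without the exposure chamber of C1. Single genes ranged from -0.78 (HK1) to 0.45 (P4HA1, 0.08 without the A3 array) at 0 ppm, from -0.80 (LDHC) to 0.75 (HK2) at 0.1 ppm and from -1.90 (LDHC) to 0.47 (ADM) at 0.5 ppm. How small a change these cultures could show differed between comparisons. At 0 ppm the 95% interval of the difference lay within a 2-fold change either way for 14 of 32 genes (18.9% of all probesets). It did so for 5 at 0.1 ppm (6.48%) and 24 at 0.5 ppm (32.8%). When 0.1 and 0.5 ppm were set against 0 ppm in the exposure chamber, it did for 25 and 27 genes (32.4% and 34.7%). That comparison holds neither of the arrays with low actin signal. The intervals in the plot of chamber differences were widest at 0.1 ppm, with a median half-width of 1.01, against 0.83 at 0 ppm and 0.73 at 0.5 ppm. At 0.1 ppm the intervals of the other 27 genes reached past a 2-fold change.

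**Figure D1:**
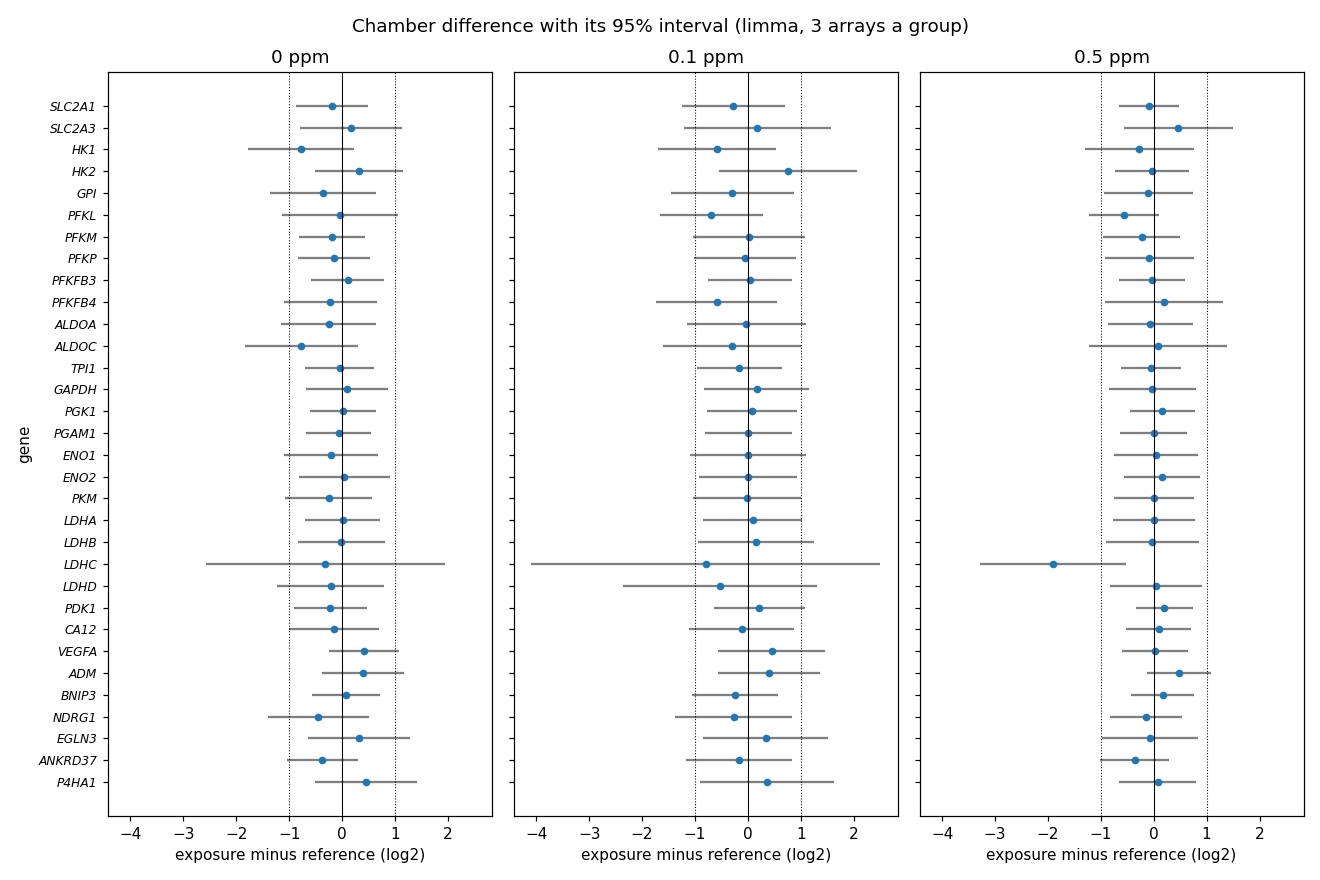
Difference in log2 signal between exposure and reference chamber (horizontal axis) for each of 32 genes (vertical axis) at 0, 0.1 and 0.5 ppm; points are limma estimates over 3 arrays a group, bars their 95% intervals, and dotted lines a 2-fold change. The interval excludes 0 for LDHC at 0.5 ppm alone.

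Among the carriers, SLC2A1, the glucose carrier of most proliferating cells and a classical HIF target, had log2 signals of 10.13, 10.55 and 10.63 in the reference chambers of A1 to A3, 10.57, 10.64 and 9.91 in those of B1 to B3 and 9.97, 10.15 and 10.13 in those of C1 to C3. In the exposure chambers it had 10.32, 10.31 and 10.11, then 10.04, 10.48 and 9.78, and then 9.84, 10.20 and 9.93. The groups overlapped at every concentration, with differences between chambers of -0.19 (standard error 0.28) at 0 ppm, -0.27 (0.40) at 0.1 ppm and -0.09 (0.23) at 0.5 ppm. Without the arrays of low actin signal they were -0.10 at 0 ppm and -0.18 at 0.1 ppm. SLC2A3, a glucose carrier of higher affinity, varied more, from 8.70 to 10.51 over 18 arrays, and differed by 0.17, 0.18 and 0.46 between chambers, none past the threshold, with -0.14 and -0.13 at 0 and 0.1 ppm without these arrays.

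HK2, the hexokinase that tumours induce, stood at 6.39, 5.88 and 6.76 in the reference chambers of A1 to A3, at 5.32, 6.70 and 6.91 in those of B1 to B3 and at 6.87, 7.06 and 6.67 in those of C1 to C3. Its exposure chambers gave 6.84, 6.77 and 6.37 at 0 ppm, 7.01, 7.52 and 6.67 at 0.1 ppm and 6.80, 7.19 and 6.50 at 0.5 ppm. The lowest of these is the reference chamber of B1, 1 of the arrays with low actin signal. Its difference at 0.1 ppm of 0.75 (standard error 0.54) was 0.26 without that array, and the one at 0 ppm, 0.32, was 0.53 without the A3 reference array. HK1, the hexokinase of most tissues, had lower values in the exposure chamber of all 3 experiments without formaldehyde (9.36, 9.06 and 9.29) than in their reference chambers (9.38, 9.96 and 10.71), of which that of A3 is an array of low actin signal. The groups at 0 ppm did not overlap, which held for 6.31% of all probesets in this direction, and the difference of -0.78 did not pass the threshold (adjusted p = 0.880 in limma). Without the A3 array it was -0.43, and at 0.1 ppm the HK1 difference of -0.59 was -0.20 without that of B1.

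Of the 17 glycolytic enzymes 0 passed between chambers at any concentration. Their median difference was -0.15 at 0 ppm, -0.01 at 0.1 ppm and -0.03 at 0.5 ppm, with 5, 6 and 7 of the 17 higher in the exposure chamber. Without the arrays of low actin signal the median was 0.06 at 0 ppm and 0.12 at 0.1 ppm, with 11 and 12 enzymes higher. PFKFB3, whose product drives phosphofructokinase, had signals of 13.79, 13.86 and 14.06 in the reference chambers of the A experiments, 13.97, 13.72 and 13.77 of the B and 13.66, 14.01 and 14.01 of the C experiments. The exposure chambers were at 13.89, 14.31 and 13.82, at 13.89, 13.69 and 14.00 and at 13.76, 13.72 and 14.10. These values overlapped in every comparison, and the chamber difference was 0.10 at 0 ppm, 0.04 at 0.1 ppm and -0.04 at 0.5 ppm (standard errors 0.28, 0.33 and 0.25), with 0.18 and 0.12 at 0 and 0.1 ppm without those arrays. PFKL, the liver type of phosphofructokinase, was lower in the exposure chamber without overlap at 0.1 ppm (-0.69, beside 5% of all probesets lower without overlap) and at 0.5 ppm (-0.57, beside 4.19%), and passed the threshold at neither (adjusted p = 0.998 and 1.00 in limma). The highest PFKL value at 0.1 ppm, 7.91, is the array of low actin signal in B1, and without it the difference was -0.46. At 0 ppm the difference was -0.04, and 0.24 without the A3 array.

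GAPDH, the dehydrogenase of glycolysis, was read by the array's 3′ control probeset. It had 14.20, 14.27 and 14.77 in the reference chambers at 0 ppm, 14.82, 14.10 and 14.12 in those of the 0.1 ppm experiments and 14.01, 14.54 and 14.65 in those of the 0.5 ppm experiments. In the exposure chambers it had 14.32, 14.85 and 14.33, then 14.46, 14.13 and 14.94, and then 14.16, 14.11 and 14.86. By this probeset high and low arrays occurred in both chambers and at each concentration. On the reference arrays of A3 and B1 the 5′ control probeset of GAPDH was at 14.61 and 14.67, against 13.67 to 14.31 elsewhere. Further probesets were at 14.28 and 14.32 (12.9 to 13.9 elsewhere), 14.07 and 14.08 (12.84 to 13.61) and 14.05 and 14.11 (12.65 to 13.58). The remaining probeset, at 13.06 and 13.14, lay within the other arrays (12.76 to 13.24). By the 3′ control probeset the chamber difference was 0.09 (standard error 0.32) at 0 ppm, 0.17 (0.41) at 0.1 ppm and -0.03 (0.33) at 0.5 ppm. Without the arrays of low actin signal the GAPDH difference was 0.26 at 0 ppm and 0.40 at 0.1 ppm.

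PGK1, which makes the first ATP of the pathway and is a long known HIF target, was at 13.47, 13.57 and 13.83 in the reference chambers of A1 to A3, 14.00, 13.44 and 13.48 of B1 to B3 and 13.41, 13.58 and 13.64 of C1 to C3. Against these stood 13.69, 13.67 and 13.59 in the exposure chambers at 0 ppm, 13.68, 13.59 and 13.89 at 0.1 ppm and 13.54, 13.57 and 14.01 at 0.5 ppm. At 0.5 ppm it differed between chambers by 0.17, with a 95% interval from -0.45 to 0.78. The PGK1 differences at 0 and 0.1 ppm, 0.02 and 0.08, were 0.13 and 0.26 without the arrays of low actin signal. Further down, ENO1, an enolase, had 12.48, 12.76 and 13.57, 13.69, 12.64 and 12.39, and 12.27, 13.02 and 12.87 in the reference chambers of the A, B and C experiments. Its exposure chambers gave 12.61, 12.74 and 12.82, 13.07, 12.67 and 12.98, and 12.43, 12.77 and 13.06 in the same order. The highest ENO1 values, 13.57 and 13.69, were those of the arrays with low actin signal, and at 0.5 ppm, where neither takes part, the chambers differed by 0.04 (standard error 0.32). At 0 ppm the ENO1 difference of -0.21 was 0.11 without that array, and at 0.1 ppm the one of -0.00 was 0.39.

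The other enzymes are given by their range over 18 arrays. TPI1, which interconverts the triose phosphates, spanned 13.04 to 13.60, and PGAM1, the phosphoglycerate mutase, 12.42 to 12.95, the narrowest ranges of the 32 genes. Phosphofructokinases PFKM and PFKP ran from 8.81 to 10.11 and from 10.73 to 11.60. The aldolase ALDOA ran from 12.82 to 14.26, the enolase ENO2 from 10.11 to 11.03 and the pyruvate kinase PKM from 12.92 to 14.15. PFKFB4, an enzyme related to PFKFB3, was dim at 4.57 to 6.92, as was LDHD, the D-lactate dehydrogenase, at 3.94 to 6.81.

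Genes of lactate formation and pyruvate entry other than LDHC gave no call either. LDHA, the subunit that favours lactate and a HIF target, had signals of 13.79, 13.99 and 14.37 in the reference chambers at 0 ppm, 14.52, 13.77 and 13.83 at 0.1 ppm and 13.68, 14.13 and 14.25 at 0.5 ppm. It had 13.95, 14.25 and 13.97, then 14.18, 13.87 and 14.35, and then 13.79, 13.81 and 14.46 in the exposure chambers. The mean difference was 0.01 at 0 ppm, 0.09 at 0.1 ppm and 0.00 at 0.5 ppm, the last with a 95% interval from -0.77 to 0.78. LDHB, the subunit of tissues that use lactate, differed by -0.01, 0.15 and -0.03. Without the arrays of low actin signal LDHA was at 0.17 and 0.34 and LDHB at 0.23 and 0.46 at 0 and 0.1 ppm. PDK1, the kinase that shuts pyruvate out of the mitochondria, gave 10.70, 10.97 and 10.65, 10.37, 10.62 and 10.90, and 10.58, 10.66 and 10.70 in the reference chambers of the A, B and C experiments. The exposure chambers had 10.64, 10.27 and 10.76 at 0 ppm, 10.89, 11.05 and 10.59 at 0.1 ppm and 10.72, 10.98 and 10.83 at 0.5 ppm. At 0.5 ppm all 3 exposed cultures lay above all 3 reference cultures, by 0.20 on average, as did 2.56% of all probesets, without passing the threshold (95% interval -0.34 to 0.74). The PDK1 differences at 0 and 0.1 ppm were -0.22 and 0.21, and -0.28 and 0.08 without the arrays of low actin signal.

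LDHC was the gene that passed. Its log2 signals were 3.63, 4.25 and 2.17 in the reference chambers of C1 to C3 and 1.33, 1.51 and 1.52 with 0.5 ppm formaldehyde, a difference of -1.90 (standard error 0.56, adjusted p = 1.00 in limma). The 0 ppm cultures were at 4.81, 2.04 and 4.07 in the reference chamber and at 4.43, 2.08 and 3.47 in the exposure chamber, and 0.5 against 0 ppm in the exposure chamber gave -1.87 (standard error 0.61, adjusted p = 1.00 in limma). At 0.1 ppm both chambers ranged widely, with 1.63, 5.58 and 1.74 in the reference and 0.47, 4.18 and 1.91 in the exposure chamber, a difference of -0.80 that was -1.47 without the B1 reference array. All but 1 of these 18 values lie below the median signal of their array, so the fold changes compare dim signals. Without the reference chamber of C1 the chamber difference at 0.5 ppm was -1.76 and the call was lost. Against 0 ppm the call was lost without the exposure chamber of A3, C1, C2 or C3, each in turn, with differences from -1.91 to -1.80. With 32 added to every signal before the logarithm the differences shrank to -0.33 in both comparisons and neither passed.

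Of the 8 hypoxia targets outside glycolysis that were measured 0 passed between chambers at any concentration, where their median difference was 0.19 (0 ppm), 0.11 (0.1 ppm) and 0.05 (0.5 ppm). Without the arrays of low actin signal the first was 0.04 and the second 0.07. VEGFA, the growth factor of vessels, was at 9.99, 10.17 and 9.77 in the reference chambers of A1 to A3, at 9.27, 10.26 and 10.14 in those of B1 to B3 and at 10.41, 10.33 and 9.92 in those of C1 to C3. It reached 10.24, 10.59 and 10.36, then 10.05, 10.51 and 10.46, and then 10.41, 10.18 and 10.14 in the exposure chambers. At 0 ppm, with no formaldehyde in either chamber, the exposure chambers all lay above the reference chambers, by 0.42 on average (3.72% of all probesets were higher without overlap), and the difference did not pass the threshold (adjusted p = 0.880 in limma). The difference was 0.45 at 0.1 ppm and 0.03 at 0.5 ppm. The lowest value of all, 9.27, is the array of low actin signal in B1, and without it the VEGFA difference at 0.1 ppm was 0.14. At 0 ppm it was 0.31 without the A3 array.

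ADM encodes adrenomedullin, a vessel-widening peptide, and is a known HIF target. It was at 12.03, 11.67 and 11.29 in the reference chambers of A1 to A3, 11.74, 11.94 and 11.23 of B1 to B3 and 11.54, 11.61 and 11.61 of C1 to C3. In the exposure chambers it was at 12.16, 11.80 and 12.22, at 12.21, 12.30 and 11.58 and at 11.94, 12.38 and 11.87. Within each experiment the exposure chamber was the higher. With groups of 3 the difference was 0.40 (standard error 0.31) at 0 ppm, 0.40 (0.40) at 0.1 ppm and 0.47 (0.25) at 0.5 ppm, where the groups did not overlap, and none passed the threshold. Without the A3 array the ADM difference at 0 ppm was 0.21, and without that of B1 the one at 0.1 ppm was 0.45.

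BNIP3, which marks mitochondria for removal, had signals of 12.55, 12.78 and 12.45, 12.93, 12.53 and 12.90, and 12.56, 12.29 and 12.69 in the reference chambers of the A, B and C experiments. The exposure chambers held 12.62, 12.53 and 12.84, 12.57, 12.58 and 12.47, and 12.56, 12.66 and 12.83. Its groups overlapped at each concentration (differences 0.07, -0.25 and 0.17, and -0.18 at 0.1 ppm without the B1 array). NDRG1, a stress protein raised by hypoxia, had 11.06, 11.61 and 12.30, 12.07, 11.16 and 10.72, and 11.00, 11.57 and 10.99 in the reference chambers. Its values in the exposure chambers were 11.15, 11.07 and 11.39, 11.27, 10.94 and 10.94, and 10.87, 11.19 and 11.07. The pair of NDRG1 values at 12 and over came from the arrays with low actin signal, and at 0.5 ppm the difference was -0.14 (standard error 0.27). Those at 0 and 0.1 ppm, -0.45 and -0.27, were -0.13 and 0.11 without these arrays.

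EGLN3, a prolyl hydroxylase that HIF itself induces, had 10.79, 10.41 and 9.52, 9.40, 10.66 and 10.72, and 10.55, 11.03 and 10.38 in the reference chambers of the A, B and C experiments. It had 10.57, 10.60 and 10.50, 10.98, 10.45 and 10.37, and 10.50, 11.15 and 10.12 in the exposure chambers. Here the arrays with low actin signal were the lowest of all, at 9.52 and 9.40, and the chamber difference at 0.5 ppm, without them, was -0.07 (standard error 0.36). At 0 and 0.1 ppm EGLN3 differed by 0.32 and 0.34, and by -0.04 and -0.09 without these arrays. ANKRD37, a small ankyrin protein and HIF target, was at 8.81, 8.97 and 9.27, at 9.58, 8.63 and 9.27, and at 9.10, 8.86 and 9.23 in the reference chambers. In the exposure chambers it was at 8.74, 8.44 and 8.76, at 8.74, 9.38 and 8.86, and at 8.48, 8.60 and 9.01. ANKRD37 was lower in the exposure chambers at 0 ppm without overlap (-0.37, not past the threshold, and -0.24 without the A3 array) and differed by -0.17 and -0.36 at 0.1 and 0.5 ppm with overlap, the former 0.04 without the B1 array.

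The chambers were then compared over all 9 experiments, whatever the concentration, with the experiment as a block, a comparison chosen after the data had been seen. Here 4 of 32 genes passed the threshold, beside 10% of all probesets, and 0 passed after adjustment (lowest adjusted p = 0.393 over all probesets in limma). ADM was higher in the exposure chamber in 9 of 9 experiments, which held for 0.395% of all probesets, by 0.42 on average (standard error 0.12, adjusted p = 0.494 in limma). The ADM differences of the single experiments were 0.13, 0.13 and 0.93 at 0 ppm, 0.47, 0.36 and 0.35 at 0.1 ppm and 0.39, 0.77 and 0.26 at 0.5 ppm, so that the direction is the same with and without formaldehyde in the exposure chamber. HK1 was lower in 8 of 9 experiments (a log2 difference of -0.55, standard error 0.17, adjusted p = 0.494 in limma). PFKM (-0.13) and ANKRD37 (-0.30) were lower in 8 of 9 as well and were not called. The share of all probesets with 8 of 9 in 1 direction was not counted. LDHC, with a 95% interval from -1.71 to -0.29 (adjusted p = 0.494 in limma), was lower in 7 of 9. Of all probesets 2.55% were called higher, as ADM was, and 7.48% lower, as HK1 and LDHC were.

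VEGFA was higher in the exposure chamber in 8 of 9 experiments, by 0.30 (standard error 0.12, adjusted p = 0.494 in limma). Its other 3 probesets differed by 0.06, -0.39 and 0.10, of which none passed. Leaving out A1, A2, A3, B1, B2, B3 or C3 each in turn, lost the VEGFA call, with differences from 0.24 to 0.31. Without A3 and B1, which hold the arrays of low actin signal, the VEGFA difference was 0.19 and did not pass. ADM was then at 0.34 and HK1 at -0.34, both still called at the unadjusted limit (adjusted p = 0.748 and 0.753 in limma), and LDHC and PFKM were the other genes called (6.57% of all probesets). The calls of ADM, HK1 and LDHC held when each experiment was left out in turn. For 31 of the 32 genes, all but LDHC, the 95% interval over 9 experiments lay within a 2-fold change, beside 51.3% of all probesets. For LDHA it ran from -0.26 to 0.33 and for SLC2A1 from -0.44 to 0.07.

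**Figure D2:**
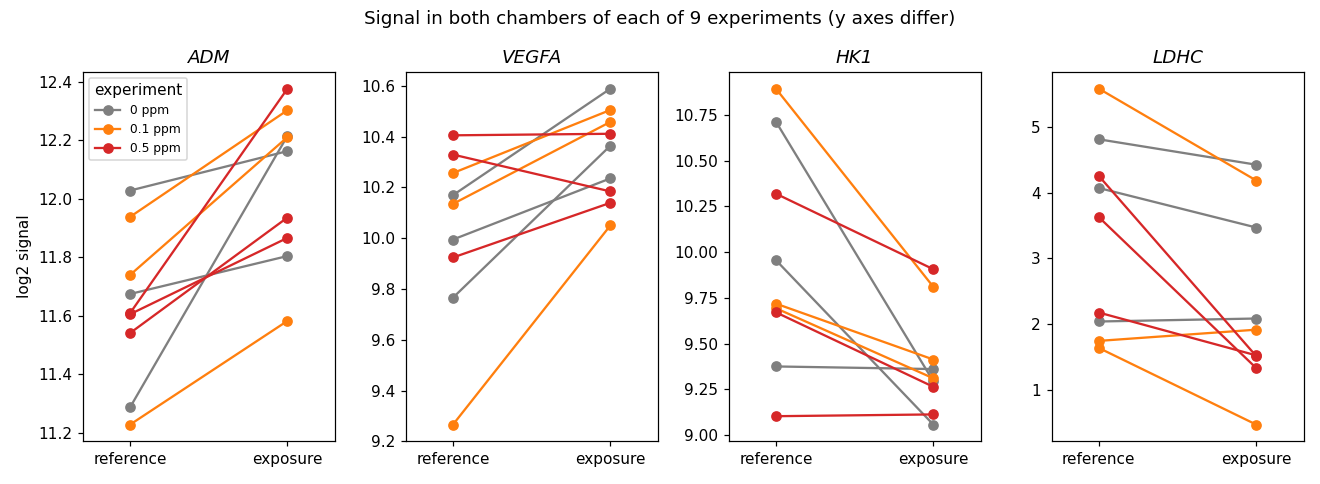
Log2 signal (vertical axis, different in each panel) of ADM, VEGFA, HK1 and LDHC in the reference and the exposure chamber (horizontal axis), with a line joining the 2 cultures of each of 9 experiments, coloured by concentration. The ADM lines rise in 9 of 9 experiments and the VEGFA lines in 8, and the HK1 lines fall in 8.

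Probesets of 1 gene gave differences of unequal size. Of the last hypoxia targets, P4HA1 ran from 11.01 to 12.69 over 18 arrays, and CA12 from 13.38 to 14.44. CA12, a carbonic anhydrase of the cell surface induced by hypoxia, differed by -0.06 (standard error 0.15) over 9 experiments by its brightest probeset. Another probeset of CA12, the seventh in brightness, was lower in the exposure chamber in all 9 experiments, as were 1.37% of all probesets, with a difference of -0.78 (standard error 0.20, adjusted p = 0.494 in limma). The sixth, also called, had -0.42 (standard error 0.12) and was lower in 8 of 9, and all 7 probesets of CA12 had negative differences. These were singled out after their values were seen. The signals of the seventh ran from 4.65 to 6.55 in the exposure and from 5.87 to 7.42 in the reference chambers. EGLN3 and P4HA1 had second probesets whose differences, -0.26 and -0.16, were opposite in sign to the brightest, 0.20 and 0.29, and none of these passed. HK2 differed by 0.35 by its brightest probeset and by -0.63 and -2.38 by its others. The last was called (standard error 0.90, adjusted p = 0.494 in limma), at a mean log2 signal of 1.95. Another PGK1 probeset gave 0.53 beside 0.09 for the brightest and was not called. It was at 11.43 and 10.78 on the reference arrays of A3 and B1, against 12.64 to 13.27 elsewhere. Opposite signs occurred in further genes, such as PFKFB4 (-0.21 and 0.11).

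Variation between experiments that both chambers share was no more frequent in these genes than over the array. A limma F test of the experiment within each concentration called 2 of 32 genes, beside 8.23% of all probesets, and 0 after adjustment. Of the probesets with a mean signal above the median, to which ALDOC belongs, 6.51% were called. LDHC had the larger F (12.9, adjusted p = 0.437 in limma), with means over both chambers of 4.62, 2.06 and 3.77 in A1 to A3, 1.05, 4.88 and 1.83 in B1 to B3 and 2.48, 2.88 and 1.85 in C1 to C3. ALDOC, the aldolase of brain that HIF induces elsewhere, had 7.39, 7.22 and 8.04, then 8.18, 7.97 and 6.95, and then 7.07, 8.37 and 7.27 (F = 5.98, adjusted p = 0.528 in limma). In C2 both chambers, at 8.43 and 8.31, lay above all cultures of C1 and C3, which were between 6.97 and 7.35. The ALDOC call was lost without experiment B3 (F = 4.06) or C2 (F = 3.53), and the LDHC call was kept without any 1 experiment. Without experiments A3 and B1, which hold the arrays of low actin signal, 3 genes passed, PFKP besides these (10.7% of all probesets).

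**Figure D3:**
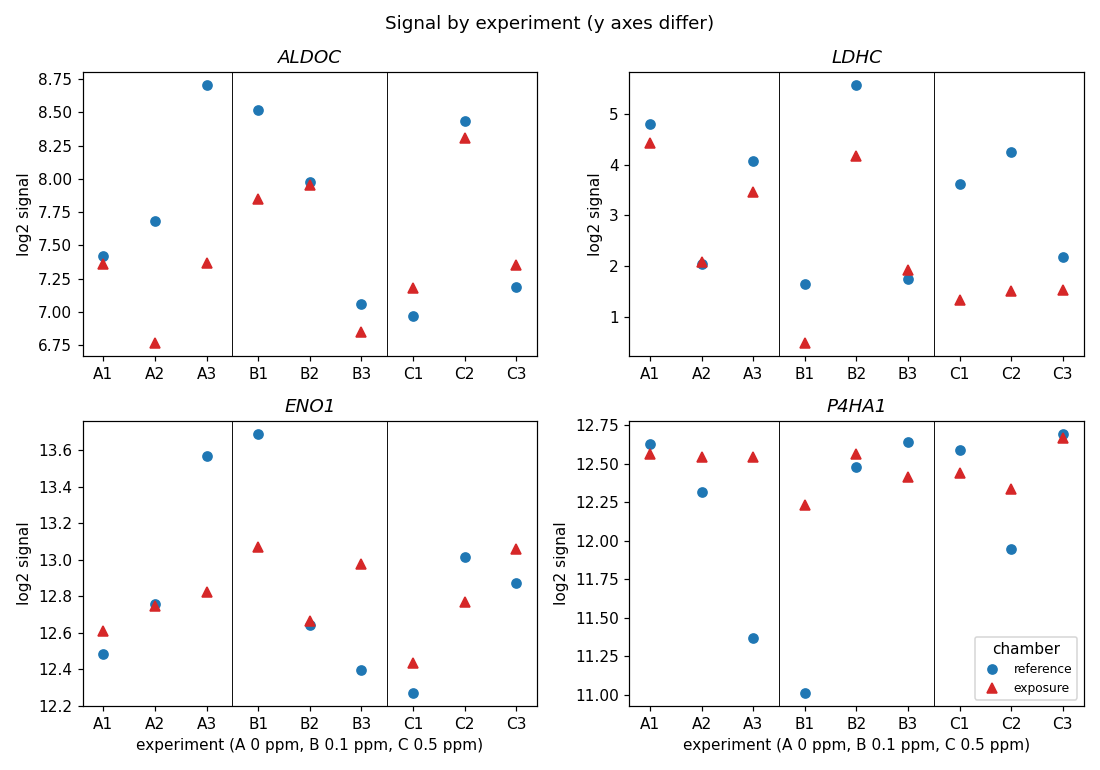
Log2 signal (vertical axis, different in each panel) of ALDOC, LDHC, ENO1 and P4HA1 in the 9 experiments (horizontal axis), with circles for the reference and triangles for the exposure chamber. Each gene is read through its brightest probeset. In A3 and B1 the reference chamber of ENO1 lies above and that of P4HA1 below every other culture, and ALDOC is high in both chambers of C2.

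The arrays with low 5′ actin signal held the extremes of many of these genes. In 12 of 32 genes, by the brightest probeset, both arrays lay above all other 16 (HK1, GPI, PFKL, PFKFB4, ALDOA, ALDOC, TPI1, ENO1, PKM, LDHD, CA12 and NDRG1), beside 14.1% of all probesets. GAPDH is not among these, although several of its other probesets lay above as well. In 3 genes, VEGFA, EGLN3 and P4HA1, both lay below by the brightest probeset, beside 9.57%. The other probeset of P4HA1 was at 8.05 (A3) and 8.12 (B1), against 6.15 to 8.17 elsewhere. That of EGLN3 was at 8.28 and 8.19 (7.41 to 8.39 elsewhere). Other VEGFA probesets were at 6.36 and 6.13 (4.49 to 6.21), 6.83 and 6.64 (6.64 to 7.55) and 4.29 and 0.31 (1.55 to 5.52). None of these probesets had both arrays below all others. GPI, the isomerase that follows hexokinase, was at 13.64 and 13.57 on the arrays of low actin signal against 11.92 to 12.92 elsewhere. P4HA1, a collagen hydroxylase, was at 11.37 and 11.01 by its brightest probeset. After quantile normalization of the arrays 12 genes lay above (12.5% of all probesets) and 4 below (10.8%). Whether RNA quality has a part in these extremes was not tested. As the plot of all genes by array shows, they fall in the reference chambers at 0 and 0.1 ppm. Over 18 arrays 11 genes spanned less than a 2-fold range, and over the other 16 arrays 20 did.

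**Figure D4:**
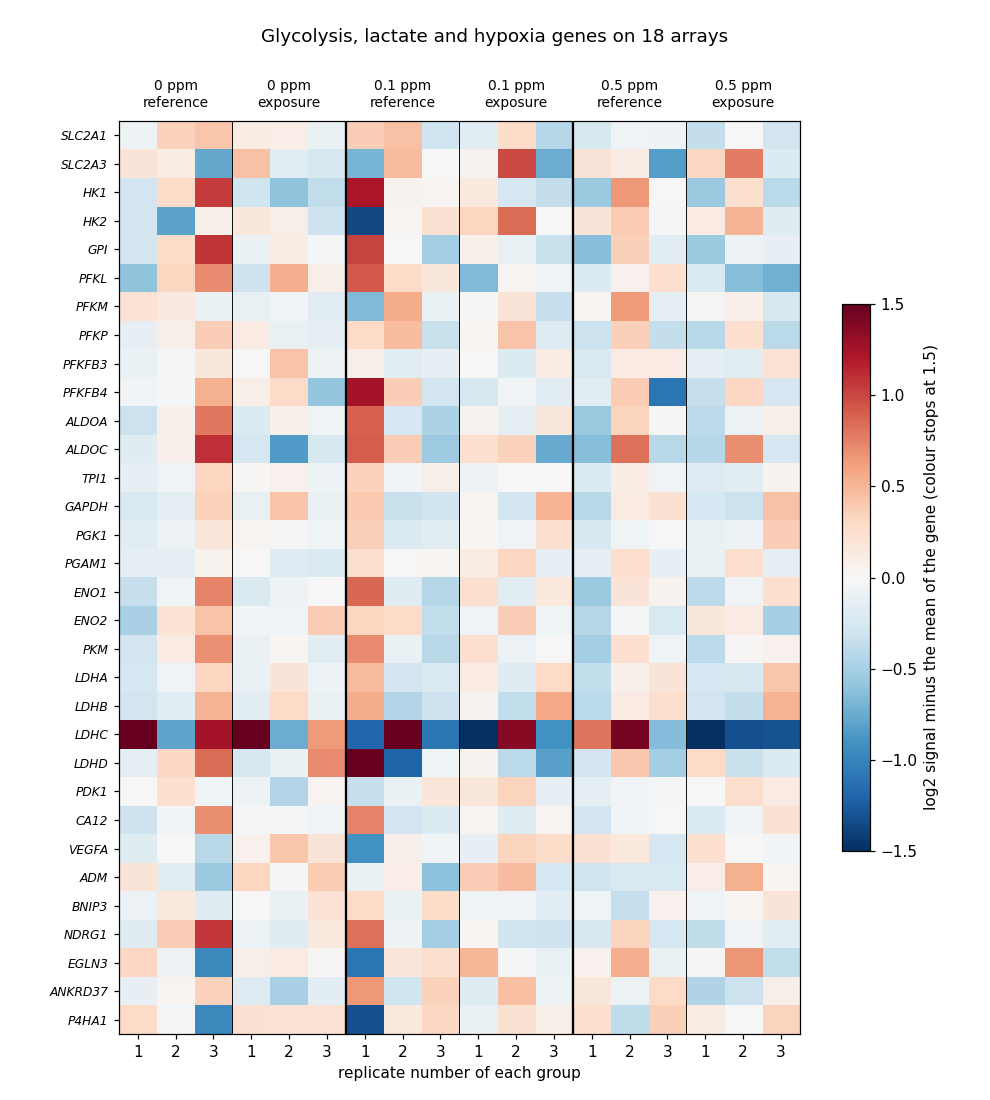
Log2 signal minus the mean of the gene (colour) for 32 genes (vertical axis) on 18 arrays (horizontal axis: replicate number within each of 6 groups of chamber and concentration). Each gene is read through its brightest probeset. The columns of the 0 ppm reference chamber, replicate 3, and the 0.1 ppm reference chamber, replicate 1, stand out in red for most enzymes and in blue for VEGFA, EGLN3 and P4HA1.

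The abundant transcripts GAPDH, LDHB, LDHA and PGK1 lie at percentiles 99.9, 99.8, 99.6 and 99.2 of the mean signal of all probesets, so their signals are part of the top end of every array. Quantile normalization assigns values by rank and therefore narrows genes at the top by construction: the range of GAPDH over 18 arrays went from 0.94 to 0.15 and that of LDHA from 0.84 to 0.19. ADM, at percentile 94.4, had ranges of 1.15 and 1.22, and its chamber difference over 9 experiments was 0.41 after this normalization (adjusted p = 0.574 in limma).

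Neighbouring parts of the pathway, read through lists of genes outside the 35, held few calls as well. At 0.5 ppm 2 of 27 further genes of glycolysis and gluconeogenesis passed the threshold between chambers, both lower, SLC2A10 and FBP2, beside 3.92% of all probesets, while SLC2A10 passed in the other direction at 0.1 ppm. Both are dim, above the array median on 0 of 18 arrays, with mean log2 signals at percentiles 8.33 and 12.5, so no size of difference is given for them. Of the oxygen sensors and HIF subunits 0 of 9 passed at any concentration, and of 23 further HIF targets 0 did. Nor did any of 7 genes of the pentose phosphate pathway or of 12 genes of pyruvate entry into mitochondria. The medians of the HIF targets outside the 35 were 0.05, 0.12 and -0.01 at 0, 0.1 and 0.5 ppm. HIF1A itself, regulated mainly through its protein, was at 13.63 and 13.62 on the arrays of low actin signal, against 13.82 to 14.38 elsewhere. Over 9 experiments it differed by 0.20 (95% interval -0.03 to 0.43) and did not pass. It was higher in the exposure chamber in 9 of 9, as were 0.395% of all probesets. In that comparison 1 of the 23 further HIF targets passed, KDM4B, a histone demethylase, lower by a log2 difference of -0.36 in the exposure chamber. Of the 12 genes of pyruvate entry 3 passed (PDK2, PC and MPC1) and of the 7 of the pentose phosphate pathway 2 (PGLS and H6PD), all lower, beside 7.48% of all probesets. PDK2, PC, PGLS, H6PD and KDM4B were higher on both arrays of low actin signal, which are reference arrays, than on any other array. MPC1 was at 10.48 (A3) and 9.74 (B1) on them, against 9.43 to 10.46 elsewhere. Whether these calls hold without the arrays of low actin signal was not tested.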

How the data were processed

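RNA of A549 cells was amplified and labelled by the authors and hybridised to Affymetrix HG-U133 Plus 2.0 arrays, 1 per culture. Intensity values were deposited as MAS5 signals on a linear scale (the tool's version is not given in the sources used here), with the mean of each array, trimmed by 2% at either end, between 499.8 and 499.9 and the median between 26.7 and 34.0. The deposited signals were turned into log2 without an offset and not normalised further. Groups came from the labels. Replicates are cultures of separate experiments. Each pair of groups was fitted alone in limma 3.58.1 (R 4.3.3) over all 54675 probesets, as in the study's methods, and the difference between chambers over 4 groups. Of the probesets, 41097 name exactly 1 gene, 1801 several and 11777 none. The rule for named genes was the study's threshold per comparison plus 14 genes given in every sample. The genes and lists were chosen with earlier results of these data known. The scripts were tested on simulated data. Alternatives were 32 added to each signal, quantile normalization, a trend in the variance prior and a filter on dim probesets. Single arrays or experiments were left out, and the second brightest probeset, a replicate block and 1 fit over all groups were used. The number of arrays limits the precision.

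The replicate number names the experiment, and the labels give both chambers of an experiment the same raw file number. The deviations of same-numbered cultures from their group means were correlated over all probesets. The correlation was 0.31, 0.0095 and 0.32 in A1 to A3 and 0.049, 0.49 and 0.0086 in B1 to B3. In C1 to C3 it was 0.46, 0.46 and 0.41. In A2 and B3 the highest correlation with a culture of another number was above these, at 0.037 and 0.28.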

Additional observations from a re-analysis of the deposited data

How the results depend on the processing

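With the experiment as a block, the chamber difference at 0.5 ppm minus that at 0 ppm called 1 gene in place of 0 (LDHC, -1.58, adjusted p = 0.982 in limma). For comparisons of 2 groups the block was the replicate number. It pairs the chambers of an experiment, but between concentrations it pairs cultures of unrelated experiments. A block changed no other count of called genes. No difference of a called gene turned its sign under the alternatives run. With 32 added to every signal 1 gene passed between chambers at 0 ppm, 2 passed at 0.5 ppm, 6 between experiments of 1 concentration and 7 over all 9 experiments, beside 4.78%, 2.89%, 14% and 14% of all probesets. With a trend in the variance prior these counts were 1, 2, 9 and 7, beside 4.36%, 2.43%, 12.5% and 13.4%. With this trend 0 genes passed for 0.5 against 0 ppm in the exposure chamber. Of the 32 genes, 31 lie among the probesets above the median mean signal. Of all probesets there, 5.5%, 2.56%, 23.6% and 22.6% were called with 32 added, in the same order. With the trend 3.19%, 0.849%, 19.8% and 20.3% of them were. In 1 fit over all 6 groups 0 genes passed at 0.5 ppm, either between chambers or against 0 ppm. With probesets above the median signal only, 4 genes passed between experiments (16.3% of those probesets). Through the second brightest probeset, had by 20 genes, 1 passed for 0.1 against 0 ppm and 0 for 0.5 against 0 ppm in the exposure chamber, 1 between the reference chambers of the 0.5 and 0 ppm experiments, 1 for the chamber difference at 0.5 ppm, 1 between experiments and 0 over all 9 experiments. Leaving out 1 array at a time gave 0 to 1 genes between chambers at 0 ppm and at 0.5 ppm. For 0.5 against 0 ppm in the exposure chamber it gave 0 to 2. Leaving out 1 experiment gave 1 to 3 between experiments and 3 to 5 over all 9. The causes were not tested. Signals near background limit LDHC.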
